A study of Homo sapiens with 8 samples.

Results

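The genes described here belong to the Wnt pathway and were chosen by name: the transcription factors LEF1, TCF7, TCF7L1 and TCF7L2, the cytoplasmic feedback inhibitors AXIN2 and NKD1, the membrane proteins RNF43, ZNRF3 and LGR4, and the repressor SP5. Of these 10 genes, 9 have a row among the 14526 genes of the deposited RPKM table, and SP5 has none. RPKM scales the reads of a gene by its length and by the size of the library. RNA was sequenced from 4 control cultures and from 4 cultures kept in 10 mM sodium benzoate (SB) for 24 h, all grown in DMEM with 10% FBS and labelled HepG2, a line from a human liver carcinoma. No treatment is named for the controls, and the sources call the replicates biological without saying whether they came from separate passages, so the p-values measure the spread between these cultures only.

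Wnt ligands bind Frizzled receptors and LRP co-receptors, which keeps β-catenin from being degraded. β-catenin then enters the nucleus and binds the TCF/LEF factors, which otherwise hold target genes down together with Groucho co-repressors. Several targets feed back on the pathway. AXIN2 scaffolds the complex that degrades β-catenin, NKD1 binds Dishevelled, and RNF43 and ZNRF3 are ubiquitin ligases that remove Frizzled receptors from the membrane unless R-spondin and an LGR receptor take them away. HepG2 is known for an internal deletion in CTNNB1, the β-catenin gene, that stabilises the protein. The table holds no variants, and this deletion was not examined.

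The labelled cell type was compared with a list of hepatocyte genes. Of 20 such genes, 17 have no row, among them ALB, AFP, APOA1, APOB, TTR, SERPINA1 and HNF4A. Most of the defining hepatocyte genes are therefore missing, and the cells are called here by their labels only. Of 10 fibroblast genes, 5 have a row, and COL1A2, DCN, PDGFRB, FAP and THY1 have none. Their sum ran from 383 to 421 RPKM in the controls and from 566 to 588 RPKM after SB, nearly all of it from VIM, which many cultured lines express and which rose from 399 to 569 RPKM. Of the other fibroblast genes LUM rose from 0.347 to 0.61 RPKM, the collagen gene COL3A1 fell from a mean of 2.49 RPKM by 0.48 on the log2 scale (limma adjusted p = 3.35e-05), and COL1A1 (4.86 and 4.10 RPKM) and PDGFRA (0.55 and 0.658 RPKM) did not pass. The part of such cells in the results below was not tested, and in bulk RNA fewer cells of a type and less RNA per cell cannot be told apart. Whole reads recovered from the table ranged from 36964791 to 44846247 per library. Control replicate 1 stood apart from the other controls. By Dixon's test it lay far from its group for 14.6% of genes and each other control for 0.317% to 0.62%. Of the variance of its distance from the other controls, 53.8% went with GC content. The other controls had 24.1% to 35.5%, but the mean they were measured against held control replicate 1. The SB-treated libraries had 1.87% to 28.9%. The changes of LEF1 and LGR4, for which it lay past the limit of that test, are given with and without it.

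Promoter sequences show which of these genes carry the letters TCF/LEF factors are known to bind. RefSeq promoters (build GRCh38.p14) were found for 7 of the 10 genes, with 11 starts in all. AXIN2, NKD1 and ZNRF3 had no entry. The search was for the motif CTTTGAA, for the motif CTTTGAT, for the motif CTTTGTA and for the motif CTTTGTT, on both strands, whose matches did not overlap each other in these genes, in the 250 bases before and 50 bases after each start. Of the 11 starts 3 held a match, and 13.8% of all 35116 promoters of the same length did. SP5 held 3 matches, a number or more that 0.179% of all promoters reached. TCF7L1, the only TCF/LEF gene that rose, held none. Both are printed from 250 bases before the start up to the start, with matches in capitals. SP5 lies at chr2:170715087-170715336 on the plus strand, and TCF7L1 at chr2:85133142-85133391 on the plus strand.
SP5: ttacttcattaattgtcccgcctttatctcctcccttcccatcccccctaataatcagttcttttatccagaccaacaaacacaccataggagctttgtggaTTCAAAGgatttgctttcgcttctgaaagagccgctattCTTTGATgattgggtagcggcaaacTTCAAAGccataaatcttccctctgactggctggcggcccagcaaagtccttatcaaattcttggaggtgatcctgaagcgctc
TCF7L1: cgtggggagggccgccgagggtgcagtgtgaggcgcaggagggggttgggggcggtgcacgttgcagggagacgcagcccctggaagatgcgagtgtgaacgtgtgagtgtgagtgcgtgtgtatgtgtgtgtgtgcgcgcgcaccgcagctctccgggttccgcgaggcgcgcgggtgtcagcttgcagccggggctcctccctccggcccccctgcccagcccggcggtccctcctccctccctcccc
The other matches lay before the second of 2 starts of TCF7 and the second of 3 starts of TCF7L2, each 1 match. They are shown in windows at chr5:134123557-134123585 and chr10:113126489-113126517, both on the plus strand, 50 and 133 bases before the start. The inner start of TCF7 is known to give a short protein without the domain that binds β-catenin, and values per gene do not separate it from the long form.
TCF7: ggccccactggAACAAAGgaggagagagg
TCF7L2: aaaatatcaggCTTTGTTcttttgattga
LEF1, LGR4 and RNF43 held no match in their windows. For LEF1 the only start had its 250 bases at chr4:108166302-108166551, inside the span of the gene, whose outer end is at 108168956. The bases before that outer end were not searched.

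Of the 9 genes measured, 4 rose in SB-treated cells (TCF7L1, LGR4, ZNRF3 and NKD1), 2 fell (LEF1 and TCF7L2), and AXIN2, RNF43 and TCF7 did not pass the test. Calls come from limma fitted to log2(RPKM + 1), at a Benjamini-Hochberg adjusted p under 0.05 across the whole table. The called genes were 66.7% of the members, near the 65.6% of all genes that passed. Over all genes 33.0% rose and 32.6% fell. The median absolute log2 fold change was 0.15 in the 9 genes and 0.20 in all genes, so their changes were not large for this treatment. The values of the groups did not overlap for the same 6 genes (of all genes, 31.0% were higher and 30.5% lower without overlap, 61.5% together), and for each of these the exact permutation test of 4 against 4 gave its smallest two-sided p of 0.0286. Fold changes are differences in log2(RPKM + 1), which makes them smaller than the true ones where RPKM is low.

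**Figure D1:**
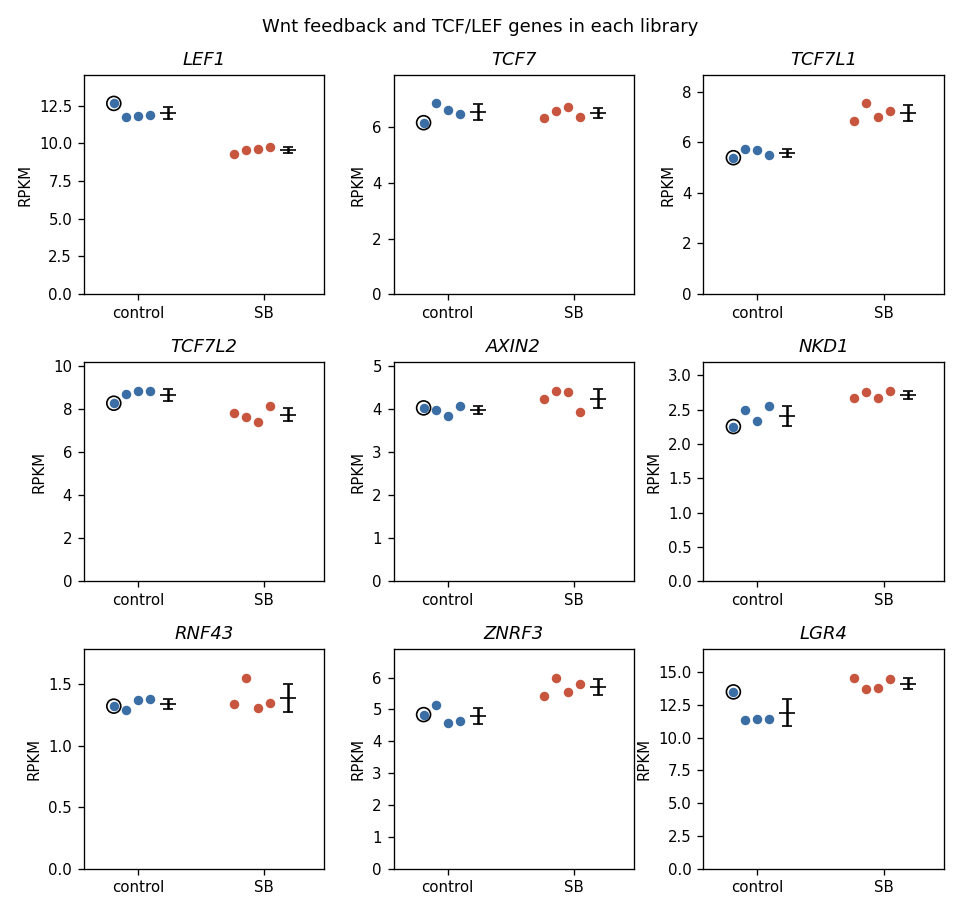
RPKM (y axis, from 0) of the 9 genes in the 4 control and 4 SB-treated libraries. Each point is a library, the bar beside the points is the mean with its SD (n = 4), and the ring marks control replicate 1. The groups are separate for LEF1, TCF7L1, TCF7L2, NKD1, ZNRF3 and LGR4 and overlap for TCF7, AXIN2 and RNF43.

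Among the TCF/LEF factors, LEF1 fell and TCF7L1 rose by a like amount. LEF1 is the family member best known as an activator and is itself a Wnt target in many tissues. It lies at chr4:108047545-108168956 (hg38, minus strand). Its level was 12.7, 11.8, 11.8 and 11.9 RPKM in control replicates 1 to 4 and 9.27, 9.57, 9.65 and 9.73 RPKM in the SB-treated replicates. All treated values were below all control values, and control replicate 1 was the highest of the 8. The means were 12.0 ± 0.423 RPKM (SD, n = 4) and 9.56 ± 0.204 RPKM (SD, n = 4), a change of -0.30 ± 0.036 (SE) in log2(RPKM + 1), at an adjusted p = 5.82e-05 in limma. Without control replicate 1 it was -0.28 (limma adjusted p = 8.00e-06). Between 1470 and 2223 reads per library stood behind these values.

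TCF7L1, often a repressor of targets when β-catenin is absent, lies at chr2:85133392-85310387 (plus strand). Its level was 5.39, 5.73, 5.69 and 5.49 RPKM in the controls and 6.84, 7.53, 6.99 and 7.25 RPKM after SB. The lowest treated culture was above the highest control. The means of 5.57 ± 0.162 RPKM (SD, n = 4) and 7.15 ± 0.304 RPKM (SD, n = 4) gave a change of 0.31 ± 0.038 (SE) in log2(RPKM + 1), at an adjusted p = 7.86e-05 in limma. TCF7L2, a main TCF of gut and liver, lies at chr10:112950247-113167678 (plus strand). Its level was 8.27, 8.68, 8.83 and 8.85 RPKM in the controls and 7.81, 7.62, 7.38 and 8.13 RPKM after SB. The highest treated value lay just under control replicate 1, which was the lowest control. In log2(RPKM + 1) it changed by -0.15 ± 0.039 (SE), at an adjusted p = 8.38e-03 in limma. When library sizes were taken without their TMM factors, it was -0.05 and did not pass (limma adjusted p = 0.275).

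TCF7, known for its role in T cells, lies at chr5:134114681-134151865 (plus strand). Its level was 6.17, 6.87, 6.64 and 6.50 RPKM in the controls and 6.35, 6.60, 6.73 and 6.37 RPKM after SB, and the groups lay over each other. The log2 fold change was -0.01 with a 95% interval from -0.09 to 0.08 (limma adjusted p = 0.907). After the GC and length correction it was -0.10 and passed as lower (limma adjusted p = 0.0140). The span of TCF7 overlaps SKP1, a ubiquitin ligase subunit on the opposite strand with a control mean of 42.2 RPKM and an SB mean of 37.1 RPKM. The library kit marks strand, but whether the counting used it is not given in the sources used here, so a part of SKP1 reads in the TCF7 values was not tested.

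The 4 factors were also compared as shares of their summed RPKM, which do not depend on how libraries are scaled. LEF1 made up 36.7% ± 1.56 (SD, n = 4) of it in the controls and 30.9% ± 0.38 (SD, n = 4) after SB. TCF7L1 went from 17.0% ± 0.36 (SD, n = 4) to 23.1% ± 0.657 (SD, n = 4). TCF7 had 19.9% and 21.0%, and TCF7L2 26.4% and 25.0%. The ratio of LEF1 to TCF7L1 was between 2.06 and 2.35 in the control libraries and between 1.27 and 1.38 in the treated ones, with no overlap. The sum itself averaged 32.8 ± 0.258 RPKM (SD, n = 4) without and 31.0 ± 0.555 RPKM (SD, n = 4) after SB. These ratios were chosen after the values were seen and are given without a test.

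**Figure D2:**
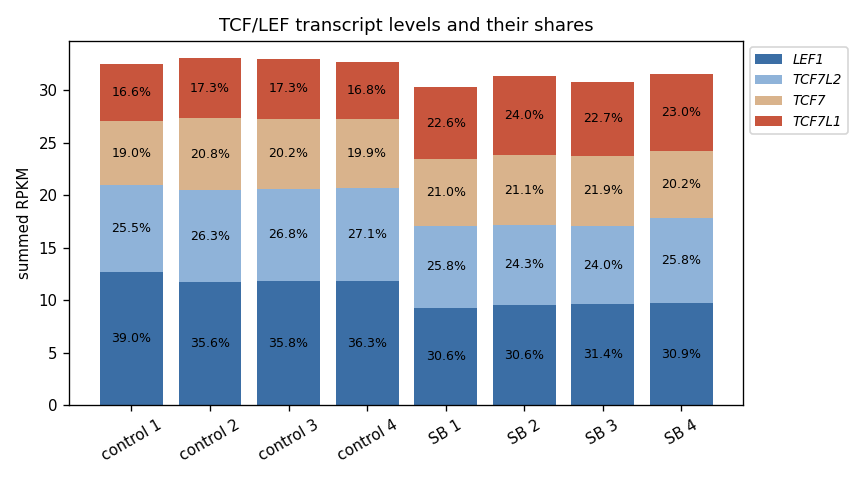
Summed RPKM (y axis, from 0) of LEF1, TCF7L2, TCF7 and TCF7L1 in each of the 8 libraries, with each gene's share of the sum printed in its segment. The LEF1 segment is between 35.6% and 39.0% in the controls and between 30.6% and 31.4% after SB, and the TCF7L1 segment is between 16.6% and 17.3% and between 22.6% and 24.0%.

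The cytoplasmic inhibitors differed from each other in their calls. AXIN2, the target most often read as a measure of Wnt activity, lies at chr17:65528563-65561648 (minus strand). Its level was 4.02, 3.96, 3.84 and 4.05 RPKM in the controls and 4.22, 4.42, 4.38 and 3.92 RPKM after SB. In the treated group, replicates 1 to 3 were above all controls and replicate 4 lay inside the control range. The means were 3.97 ± 0.0926 RPKM (SD, n = 4) and 4.23 ± 0.228 RPKM (SD, n = 4), and the log2 fold change of 0.07 (standard error 0.040, 95% interval from -0.01 to 0.16) did not pass the test (limma adjusted p = 0.125, exact permutation p = 0.114). It passed without SB-treated replicate 4, at 0.10 (limma adjusted p = 0.0426), and without TMM factors, at 0.16 (limma adjusted p = 0.00593). AXIN2 was counted with 581 to 784 reads per library, and an unnamed coding gene without a row overlaps it on the same strand.

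NKD1 lies at chr16:50548396-50649249 (plus strand). Its level was 2.25, 2.50, 2.33 and 2.55 RPKM in the controls and 2.67, 2.76, 2.67 and 2.78 RPKM after SB, with a narrow gap between the groups. The means of 2.41 ± 0.141 RPKM (SD, n = 4) and 2.72 ± 0.0585 RPKM (SD, n = 4) gave a change of 0.13 ± 0.038 (SE) in log2(RPKM + 1), at an adjusted p = 0.0150 in limma. With 8716 counted bases NKD1 is the longest of the 9 genes. When each library was corrected for the GC content and length of its genes, the value was -0.04 (limma adjusted p = 0.228), so the rise of NKD1 held without that correction only. The paralogue AXIN1, the constitutive scaffold, ran from 17.3 to 18.6 RPKM in the controls and from 20.4 to 21.3 RPKM after SB, a change of 0.20 (limma adjusted p = 8.03e-04). It did not pass after the GC and length correction (limma adjusted p = 0.0669). NKD2, the paralogue of NKD1 and named after its values were seen, was at 4.37 RPKM and 3.97 RPKM and did not pass (limma adjusted p = 0.0817). It did not pass in 12 of 16 alternatives either. It passed as lower with the replicate number as a block, after the GC and length correction without and with that block, and without control replicate 1. Its changes were between -0.31 and -0.03 across the alternatives.

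At the membrane, the R-spondin receptor and 1 of the 2 ubiquitin ligases were higher after SB. LGR4 lies at chr11:27365961-27472790 (minus strand). Its level was 13.5, 11.4, 11.4 and 11.4 RPKM in control replicates 1 to 4 and 14.6, 13.7, 13.8 and 14.5 RPKM after SB. Control replicate 1 lay near the treated cultures, and controls 2 to 4 lay close together, but the groups did not overlap. The means were 11.9 ± 1.05 RPKM (SD, n = 4) and 14.1 ± 0.439 RPKM (SD, n = 4). In log2(RPKM + 1) it changed by 0.23 ± 0.056 (SE), at an adjusted p = 4.73e-03 in limma, and without control replicate 1 it was 0.29 (limma adjusted p = 1.54e-05). LGR4 had the lowest GC content of the 10 genes, 42.2%, and after the GC and length correction its log2 fold change was 0.20 (limma adjusted p = 3.40e-04).

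ZNRF3 lies at chr22:28883572-29057488 (plus strand). Its level was 4.84, 5.15, 4.57 and 4.65 RPKM in the controls and 5.43, 5.99, 5.55 and 5.81 RPKM after SB. Every treated culture was above every control. The means differed by a ratio of 1.19, a change of 0.21 ± 0.044 (SE) in log2(RPKM + 1), at an adjusted p = 2.24e-03 in limma. After the GC and length correction it was 0.06 and did not pass (limma adjusted p = 0.32). The antisense gene ZNRF3-AS1 lies inside its span, at 1.06 RPKM in the controls and 1.19 RPKM after SB.

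RNF43, the other ligase, lies at chr17:58353676-58417595 (minus strand) and had the lowest level of the 9 genes. It was at 1.32, 1.29, 1.37 and 1.38 RPKM in the controls and 1.34, 1.55, 1.31 and 1.35 RPKM after SB. The treated replicate 2 was the highest of the 8 and the other treated values lay among the controls. The log2 fold change was 0.03 with a 95% interval from -0.06 to 0.12 (limma adjusted p = 0.577). After the GC and length correction the direction turned and RNF43 passed as lower, at -0.11 (limma adjusted p = 0.0398). Its depth, 285 to 365 reads per library, gives a counting error of 5.56% of the value, against 1.89% for LGR4, and an unnamed coding gene without a row overlaps it on the same strand. The ratio of ZNRF3 to RNF43 was between 3.34 and 3.99 in the controls and between 3.86 and 4.31 after SB, so the groups overlapped.

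Levels were ordered by RPKM, which accounts for gene length but not for GC content. The controls ran from LEF1 (12.0 RPKM) and LGR4 (11.9 RPKM) over TCF7L2, TCF7, TCF7L1, ZNRF3 and AXIN2 to NKD1 and RNF43 (1.34 RPKM). LEF1 and LGR4 overlapped, and the other neighbours did not. After SB, LGR4 stood above LEF1 (14.1 against 9.56 RPKM), TCF7L1 passed TCF7, and only TCF7L2 and TCF7L1 overlapped as neighbours. LGR4 stood at percentile 61.6 of all genes by level and RNF43 at percentile 17.0. The SDs of the 9 genes were between 2.33% and 8.81% of the mean in the controls and between 2.14% and 8.13% after SB, and counting alone gives between 1.89% and 5.56%. The largest control spread was that of LGR4, where control replicate 1 stood apart.

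**Figure D3:**
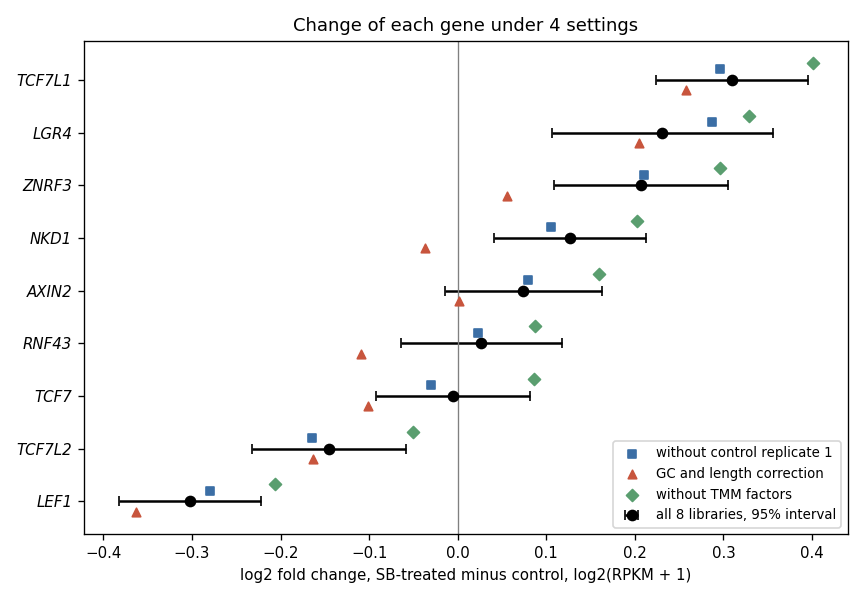
Log2 fold change, SB-treated minus control, on the log2(RPKM + 1) scale (x axis) for each of the 9 genes. Black points with bars are the fit to all 8 libraries with its 95% interval, squares leave out control replicate 1, triangles follow the GC and length correction, and diamonds use library sizes without TMM factors. TCF7L1, LGR4, ZNRF3 and AXIN2 stay above 0 and LEF1 and TCF7L2 below 0 in all 4, with the triangle of AXIN2 at 0.00. The triangles of NKD1 and RNF43 lie at -0.04 and -0.11, and their other points above 0. The diamond of TCF7 lies at 0.09 and its other points below 0.

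The genes most like AXIN2 across the 8 libraries, by Pearson correlation of log2(RPKM + 1) among 12544 other genes with a mean of at least 1 RPKM, were SPATA24 (0.95), QRFPR (0.93), LOC642846 (0.90), GJB2 (0.90) and IKZF4 (0.90). The 8 points share libraries and fall into 2 groups, so these are descriptions. None of them is a member of the lists below.

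The rest of the pathway was read from lists of other Wnt genes, in which 89 of 120 genes have a row. Of these 89, 37 rose, 28 fell and 24 did not pass, so 73.0% were called where 65.6% of all genes were. Their median log2 fold change was 0.04, against 0.00 over all genes. Differences between the lists were not tested. After the GC and length correction the median was 0.01 for ligands (0.11 before), 0.06 for receptors (0.16), 0.09 for extracellular antagonists (0.01), 0.01 for the cytoplasmic list (0.15), -0.20 for nuclear cofactors (-0.21) and -0.02 for other targets (-0.00). The correction tested only 8 of the 9 antagonists and 11 of the 12 nuclear cofactors. For these lists the medians before and after it are over unlike sets of genes.

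Of 12 nuclear cofactors with a row, 8 fell, 1 rose and 3 did not pass, where 32.6% of all genes fell and 33.0% rose. Across the alternatives between 6 and 9 fell, with 6 when TMM factors were left out. CTNNB1 itself had a control mean of 111 ± 2.59 RPKM (SD, n = 4) and fell to 96.1 ± 0.65 RPKM (SD, n = 4), with a change of -0.21 ± 0.032 (SE) in log2(RPKM + 1), at an adjusted p = 3.31e-04 in limma. The largest fall was in CBY1, an antagonist that binds β-catenin, from 54.0 to 34.9 RPKM with a log2 fold change of -0.61 (limma adjusted p = 9.49e-07). The Groucho co-repressors TLE4 and TLE1 fell from 25.4 to 18.9 RPKM and from 18.9 to 14.4 RPKM, with log2 fold changes of -0.41 and -0.38. TLE3 and the short family member AES, named after their values were seen, fell too (-0.33 and -0.22). TLE2, of the same family, did not fall. It was at 5.26 RPKM in the controls and 5.72 RPKM after SB and did not pass (0.11, limma adjusted p = 0.306). The gene that rose was PYGO1, a co-activator, from 1.73 to 2.42 RPKM. The 7 cofactor genes named here other than TLE2 kept their direction and passed in every alternative that tested them. The GC and length correction tested only 11 of the 12 cofactors.

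Of 16 receptors with a row, 9 rose and 3 fell, so 75.0% were called where 65.6% of all genes were (33.0% higher and 32.6% lower). The counts were 11 and 2 without TMM factors and 7 and 4 after the GC and length correction. FZD6, a Frizzled receptor linked to planar polarity, had the largest change, from 7.03 to 8.85 RPKM in the controls (mean 7.70 RPKM) to values between 14.8 and 15.7 RPKM after SB (mean 15.2 RPKM), a change of 0.90 on the log2 scale (limma adjusted p = 2.31e-06). FZD1 and FZD3 rose from 2.54 to 3.45 RPKM and from 2.45 to 3.36 RPKM. ROR1, a receptor of non-canonical Wnt signals, fell from 4.12 to 3.08 RPKM. The Frizzled genes did not all rise. FZD4 and FZD8, named after their values were seen, fell from 2.55 to 2.13 RPKM and from 3.80 to 3.23 RPKM (limma adjusted p = 1.11e-03 and 4.92e-03). LGR5, the paralogue of LGR4 that marks stem cells in several tissues and was named after its values were seen, was at 0.844 RPKM in the controls and rose to 1.11 RPKM (log2 fold change 0.20, limma adjusted p = 8.03e-04).

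Of the ligand and secretion genes 13 of 25 have a row, 6 rose and 5 fell. That is 84.6% called, where 65.6% of all genes were (33.0% higher and 32.6% lower). WNT10B fell from 5.34 to 3.37 RPKM and WNT5A from 4.11 to 3.15 RPKM, while WNT9A rose from 0.464 to 1.30 RPKM and the R-spondin RSPO4 from 0.326 to 0.846 RPKM. RSPO4 is a ligand of the LGR receptors, and its control values ran from 0.165 to 0.425 RPKM. Extracellular antagonists divided as well, with 4 higher and 3 lower of 9, which makes 77.8% called. APCDD1, which is also a Wnt target, rose from 1.90 to 3.41 RPKM and DKK3 from 1.53 to 2.38 RPKM, while KREMEN2 fell to 1.85 RPKM (-0.55 on the log2 scale) and SFRP1 from 8.96 to 7.04 RPKM. In the cytoplasm, 10 of 19 genes rose and 2 fell, which makes 63.2% called against 65.6% of all genes. After the GC and length correction 8 rose and 4 fell, and without TMM factors 13 rose and 0 fell. The kinase gene CSNK1G1 rose from 4.51 to 6.05 RPKM and DVL3, a Dishevelled gene, from 15.5 to 19.3 RPKM. APC2 was at 0.709 RPKM and 1.17 RPKM and passed in limma (adjusted p = 1.44e-03), but it did not after the GC and length correction, without or with the replicate number as a block (highest adjusted p = 0.918).

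Other target genes showed no common direction. Of 25 with a row, 10 rose, 7 fell and 8 did not pass, with a median log2 fold change of -0.00. The called share was 68.0%, near the 65.6% of all genes. The 4 target genes with the smallest adjusted p all fell, and further than any gene of the feedback and TCF/LEF set changed. Targets that rose also moved further than that set, among them APCDD1 (0.61), and NOTUM (0.47) and JUN (0.44), named after their values were seen. ID2, an inhibitor of basic helix-loop-helix factors that BMP signals also induce, fell from values of 166 to 204 RPKM (mean 179 RPKM) to values of 91.7 to 95.3 RPKM (mean 93.6 RPKM), which is -0.92 on the log2 scale (limma adjusted p = 1.70e-06). BAMBI, a decoy receptor that damps BMP signals, fell from 14.6 to 7.34 RPKM with -0.91. SOX9, a developmental factor, fell from 5.61 to 3.21 RPKM with -0.65, and CCND1, the cyclin D1 gene, from 26.8 to 18.8 RPKM with -0.49. These genes answer to other pathways too, and no difference between them and the feedback genes was tested.

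**Figure D4:**
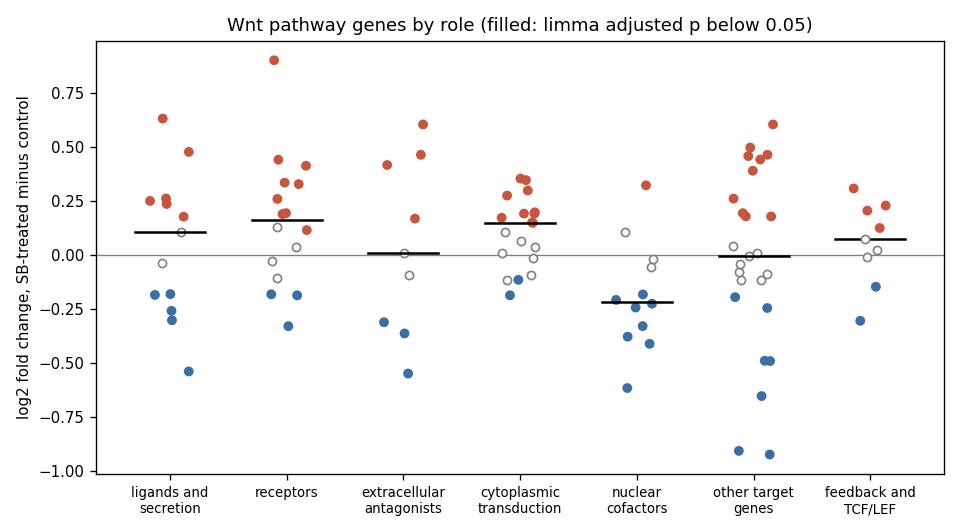
Log2 fold change, SB-treated minus control, on the log2(RPKM + 1) scale (y axis) of the genes of 6 Wnt lists and of the 9 feedback and TCF/LEF genes (x axis, spread sideways at random). Filled points passed limma at an adjusted p below 0.05, red for higher and blue for lower, open points did not pass, and black lines are medians. The nuclear cofactors have their median at -0.21 and the receptors at 0.16. After the GC and length correction (not drawn) these became -0.20, over 11 of the 12 cofactors, and 0.06.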

How the data were processed

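Per the paper's methods, total RNA of 4 control and 4 SB-treated cultures was made into stranded libraries. The authors mapped the reads to hg38 with TopHat2 2.1.0, counted them per gene with featureCounts 1.5.0, dropped genes that did not pass 1 CPM in 2 or more samples and scaled library sizes with TMM in edgeR 3.16.5. The authors deposited RPKM values per library, and 4 further columns hold their own comparison (fold change, mean level, p-value and FDR), which were not used. The number of per-sample columns left unused was 0. Whether counting used the strand is not given in the sources used here.

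Groups were taken from the sample titles. RPKM values were tested as log2(RPKM + 1) with lmFit and eBayes in limma 3.58.1 (R 4.3.3), with Benjamini-Hochberg adjustment over all 14526 rows and no filter. Single genes were also compared with a two-sided exact permutation test. Each RPKM value is a whole number of reads divided by a length and a library size. Reads were recovered for 100% of genes (tolerance 0.02 reads), and 99.8% of the lengths that follow were within 0.05 bases of a whole number. The fit and the recovery were tried on simulated data. The data simulated for the fit held far fewer changed genes than were called here, no GC effect and no deviating library. That trial therefore does not bear on the calls made here. GC content came from GENCODE release 44 transcripts and was found for 91.5% of genes. The correction removed from each library a spline in GC content and one in log2 length. Gene positions are those of GENCODE release 44 on hg38, and promoters those of RefSeq on GRCh38.p14.

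The members and lists were chosen with earlier results of these data known. Members with a row were all named, and from each other list the 4 genes with the smallest adjusted p, with CTNNB1 and AXIN1, and the 5 genes most like AXIN2. TLE5 and TMEM131L were found under the older symbols AES and KIAA0922. Counting error is the only error that the numbers of reads describe. ChIP-seq data were not analysed here. The summed level of the hepatocyte genes with a row is not reported here.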

Additional observations from a re-analysis of the deposited data

Results flagged for a closer look

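For LEF1 in the control libraries, replicate 1 was the highest and lay far from the others on the log2(RPKM + 1) scale, with a gap to the next control of 0.888 of the whole range. For LGR4 the same replicate was the highest, with a gap of 0.963. Both shares are past the 95% limit of Dixon's test. Among the 18 groups tested, 2 went past it, both through control replicate 1. About 0.9 would by chance at the nominal 5%, which takes no account of that library. Over all genes control replicate 1 lay past the limit for 14.6%, so its place is not particular to these genes.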

How the results depend on the processing

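The numbers of all genes higher and lower stayed within 1.5 times of 4787 and 4740. Without TMM factors 65.1% of called genes were higher, against 50.2%, as the median log2 ratio of all genes moved from 0.01 to 0.11, so values under that setting are to be read against this shift. Among the 9 genes, 2 were higher after the GC and length correction, in place of 4, and 4 were lower in place of 2. With that correction and the replicate block together 2 were higher and 3 lower. Without TMM factors 5 were higher and 1 lower. With the replicate block alone 4 were higher and 2 lower, and it changed no call of the 9 genes. Same-numbered replicates correlated at 0.38, 0.327, 0.173 and -0.16 in their deviations, 3 of 4 over 0.1, and 2 of 4 controls were closest to their own number, so the numbers were not taken as pairs.

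LEF1, TCF7L1 and LGR4 kept their direction and passed in all 16 alternatives run for each. TCF7 turned from -0.01 to 0.0861 without TMM factors, and in 4 of the fits that left out a sample (range -0.0297 to 0.0147). After the GC and length correction it was -0.10 and passed (adjusted p = 0.0140, and 0.0282 with the replicate block). NKD1 turned to -0.0366 and RNF43 to -0.11 after the GC and length correction, without and with the replicate block, and RNF43 passed without the block (adjusted p = 0.0398) and not with it (0.0712). RNF43 ranged from -0.00613 to 0.0429 when samples were left out. ZNRF3 was at 0.06 after the correction, also with the block. TCF7L2 and AXIN2 crossed the threshold as given beside their values. AXIN2 was at 0.00 after the correction. When samples were left out, the members called higher numbered 4 to 5 and those called lower 2. The cause of these moves was not tested. Depth limits RNF43 most, with 285 reads in its shallowest library.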
